A study of Drosophila melanogaster with 84 samples.

Results

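The ITP cells are sorted fly clock neurons with a high level of *ITP*, the gene of ion transport peptide, and low levels of *Pdf* and *Trissin*, genes of other clock neuropeptides. They were chosen from the measured counts. A well was kept if it held 1000 to 6000 genes, 6000 to 75000 unique molecular identifiers (UMIs, each tagging 1 captured mRNA) and an entropy of its counts of at least 5.5. It was called an ITP cell if *ITP* reached 150 TP10K (UMIs per 10000 UMIs of the well) with *Pdf* under 150 and *Trissin* under 40. Of 8060 wells, 4595 passed these limits and 121 were ITP cells, a share of 2.63% (95% Wilson interval 2.21% to 3.14%, which covers counting error only). The ITP cells came from 59 of 84 libraries, with at most 5 per library.

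In the fly brain a small network of clock neurons times daily behaviour. CLOCK and CYCLE drive transcription of *per* and *tim*, whose proteins feed back on their own genes, and *vri* and *Pdp1* form another loop around *Clk*. Among the lateral neurons, ion transport peptide is known from a dorsal lateral neuron and from the PDF-negative small ventral neuron, both counted among the evening cells that promote activity before dusk. Their position in the brain and their role in behaviour were not measured here.

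All flies were adult *Drosophila melanogaster* with EGFP under *Clk856-Gal4*, a driver active in most clock neurons but also in some other cells, with males and females in equal numbers. LD flies were kept for 3 days in 12:12 h light and dark, and DD flies spent another 3 days in constant darkness. Brains of both were dissected in a saline with blockers of neuronal activity at 2, 6, 10, 14, 18 and 22 h (ZT in LD, CT in DD) and dissociated, and single EGFP-positive cells were sorted into wells for CEL-Seq2, a 3' tag method. Libraries of 1 time point with the same date number in their label form a batch, and batches, not cells, are the replicates here. The labels do not say whether batches are separate cultures of flies, so the p-values measure the spread between batches. There were 14 LD and 14 DD batches with no number in common, so light and batch number cannot be told apart. Library totals ran from 191993 to 4259643 UMIs, with a median of 1152988.

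The level of *ITP* set the cells apart with few wells near the threshold. *ITP* (FBgn0035023, chromosome 2R, 24537421 to 24558961, plus strand of BDGP6, the assembly called dm6) ran from 160 to 1663 TP10K over the 121 cells, with a median of 558. The 5 cells just inside the threshold held 160, 167, 176, 176 and 180 TP10K, and the 5 wells just outside it held 144, 140, 140, 132 and 117. Only 13 wells lay between 75 and 150 TP10K, against 29 between 50 and 75 and 262 between 25 and 50. These values chose the cells and are given as a description. In 68 of the 121 cells *ITP* had the highest count of all genes, and its UMIs made up 5.58% of a cell's total at the median and 16.6% at most.

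**Figure D1:**
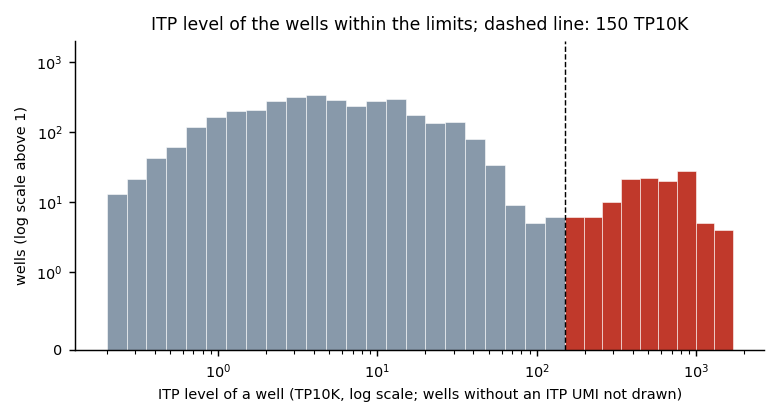
Number of wells (vertical axis, log scale above 1) by *ITP* level (horizontal axis, TP10K, log scale) over the wells within the limits. Red bars lie at or above 150 TP10K (dashed line), where 122 wells sit, 121 of them ITP cells, and the band from 75 to 150 TP10K holds 13.

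The other peptides of the rule were low in the ITP cells. *Pdf*, which encodes the main peptide of the ventral lateral neurons, had a median of 7.5 TP10K and reached 68.2, well under its limit. *Trissin* had a median of 0.424 and reached 25.5 in 1 cell, with 7.02 in the next. A single well was left out by these limits. It held 418 TP10K of *ITP*, 205 of *Pdf* and 1.35 of *Trissin*.

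The counts of *ITP* were near the limit of the tags. No gene in any well exceeded 4096 UMIs, which is the number of sequences that 6 bases can form. The tag length was read from this ceiling, and with such tags molecules of a gene that share a tag are counted once. *ITP* reached 3368 UMIs in 1 ITP cell, and 22 cells had over 2048. A correction for shared tags raised the counts by a factor of 1.22 at the median and of 2.10 at most. The levels of *ITP* given here are therefore lower bounds, and the levels of all other genes in these cells rest on totals that hold too few *ITP* molecules.

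ITP cells were found at all time points of both light conditions. The share of wells was lowest at CT10, with 4 of 513 (0.780%, Wilson interval 0.304% to 1.99%), and highest at CT02, with 14 of 328 (4.27%, 2.56% to 7.04%). In LD it ran from 6 of 388 at ZT02 (1.55%) to 16 of 413 at ZT14 (3.87%). These intervals cover counting error over single wells, and only 2 or 3 batches stand behind a time point, so they are given as a description with no comparison. Sorting, RNA recovery and the threshold on *ITP* all enter such a share, and their part in it was not tested. Batches with at least 3 ITP cells entered the tests below: 10 in LD with 62 cells and 9 in DD with 48, and 0 at CT10.

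*ITP* itself stood higher in the DD batches. Its level ran from 306 to 708 TP10K in the LD batches, with a median of 449, and from 521 to 992 in the DD batches, with a median of 728. The ranges overlap between 521 and 708. After the correction for shared tags the means were 614 ± 196 TP10K in LD (SD, n = 10) and 995 ± 225 in DD (SD, n = 9). The cells of the LD batches held more UMIs, 30393 ± 6164 per cell against 20542 ± 6646. As *ITP* chose the cells, the difference between LD and DD was given no test, and the part of depth in it was not tested.

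The ITP cells carried the marks of neurons. Each of the 121 held UMIs of *nSyb*, which encodes a synaptic vesicle protein, and 119 held UMIs of the neuronal RNA-binding gene *elav*. The summed level of 6 glial markers ran from 0.0721 to 8.41 TP10K over the LD batches (median 0.308) and from 0 to 2.00 over the DD batches (median 0.584), with *repo* and *wrapper* at 0 in every DD batch. The highest glial sum belongs to the ZT14 batch of 6 cells. The sum of 6 fat body and haemocyte markers was at most 0.360 TP10K, with *Yp1* and *Lsp2* at 0 in all batches, and that of 6 photoreceptor markers was between 0.874 and 4.79.

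Of the other proposed markers, *NPF* and *Hr51* set the ITP cells apart from only some of the classes, and *hth* did so from none. *hth*, a homeobox gene, had UMIs in all 121 ITP cells but also in 99.0% of the 4473 other cells, that is, of all wells within the limits with *ITP* under 150 TP10K. Its level per batch ran from 12.6 to 28.7 TP10K in ITP cells, with a median of 21.0, and the difference from other cells was 0.27 on the log2 scale (SE 0.09). *Hr51*, a nuclear receptor gene, ran from 0.306 to 2.88 TP10K over the 19 batches with a median of 0.991. It stood 2.30 log2 units above other cells (SE 0.22, adjusted p = 1.16e-10, from the quasi-likelihood test of edgeR adjusted by Benjamini-Hochberg), higher in 19 of 19 batches. Against Trissin cells its difference was 0.30 (SE 0.19, adjusted p = 0.392). These markers were named with results of these data known, so their pattern is no independent evidence for the label.

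The comparisons between classes were made within batches. Here "called" means an adjusted p under 0.05 and at least a 2-fold difference. Trissin cells (153 wells with at least 40 TP10K of *Trissin*) stand for the dorsal lateral neurons that make that peptide, PDF cells (389 wells with at least 150 TP10K of *Pdf*) for the PDF-positive lateral neurons, and other cells are the mixture of all wells under the *ITP* threshold, Trissin and PDF cells included. *ITP*, *Pdf* and *Trissin* chose the classes and were left out of the counts and the tests. A gene could pass the filter on low counts through 1 of the classes alone, so counts over the tested members of a list describe those members only. ITP cells held a median of 22589 UMIs, Trissin cells 20423, PDF cells 19885 and other cells 16042.

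Against Trissin cells, 65 of 1667 genes tested were called (3.90% of those tested), 30 higher (1.80%) and 35 lower (2.10%) in ITP cells. Which class lies nearest to the ITP cells was not tested. *NPF*, the gene of neuropeptide F (FBgn0027109, chromosome 3R, 16609220 to 16611325, plus strand), ran from 0 to 15.5 TP10K in ITP cells with a median of 3.03, and from 0 to 5.28 in Trissin cells with a median of 0.0914. The ranges overlap, yet it was higher in ITP cells in 17 of the 19 batches. The difference was 2.87 log2 units (SE 0.39, adjusted p = 1.69e-06 by the quasi-likelihood test).

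The peptide genes *sNPF* and *Nplp3* went the other way. *sNPF*, the gene of short neuropeptide F, ran from 7.04 to 37.7 TP10K in Trissin cells (median 18.5) and from 0.0482 to 24.3 in ITP cells (median 0.604). The ITP batch at 24.3, CT22 with 3 cells, is the only one above 2.00, and 1 of its 3 cells holds 48.9 TP10K and 42.1% of all *sNPF* UMIs of the class. The log2 difference was -4.48 (SE 0.31, adjusted p = 1.22e-12), lower in 19 of 19 batches. *Nplp3*, which encodes a neuropeptide-like precursor, ran from 0.914 to 10.2 TP10K in Trissin cells and never passed 0.240 in ITP cells, with no overlap. Its log2 difference was -5.58 (SE 0.33, adjusted p = 3.99e-14), and 11.6% of ITP cells held an *Nplp3* UMI, against 11.9% of other cells. The share in ITP cells is not above that in the mixture.

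*eys*, which encodes a secreted matrix protein, ran from 0.530 to 11 TP10K against 0.0732 to 1.41, a log2 difference of 2.78 (SE 0.25), higher in 19 of 19 batches. *nrv1*, for a beta subunit of the sodium-potassium pump, had a mean of 3.94 ± 2.54 TP10K against 0.970 ± 0.833 (SD, n = 19). It was higher in 17 of 19 batches, with a log2 difference of 2.09 (SE 0.25). *Pkc53E*, for a protein kinase C, differed by 1.97 (SE 0.26) and *igl*, for a calmodulin-binding protein, by 1.72 (SE 0.21). *Oamb*, for an octopamine receptor, differed by 2.01 (SE 0.30), and the serotonin receptor gene *5-HT1A* by 1.03 (SE 0.22), a call that was lost without any 1 of 4 batches, where the fold fell under 2. The genes *CG15765* (1.71), *CG13954* (1.44), *CG4829* (3.15), *CG42795* (1.04) and *CG13408* (1.99) and *sca*, for a secreted protein of the Notch pathway (1.81), complete the 10 with the smallest adjusted p, all at 1.08e-06 or less.

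*klg*, for an immunoglobulin adhesion protein, ran from 0.755 to 13.4 TP10K against 7.64 to 25.9 in Trissin cells, lower in 19 of 19 batches, with a log2 difference of -2.19 (SE 0.18). *dpr17* differed by -3.01 (SE 0.26), *beat-VII* by -1.72 (SE 0.15), *Con*, for a leucine-rich repeat adhesion protein, by -2.57 (SE 0.25) and *side*, a partner gene of the beat family, by -2.19 (SE 0.25). *mGluR*, for the metabotropic glutamate receptor, ran from 0 to 1.25 TP10K against 0.840 to 5.96, a log2 difference of -2.50 (SE 0.28). *CG4577* stood at 13.9 ± 5.30 TP10K against 53.3 ± 16.5 (SD, n = 19), lower in 19 of 19 batches. *CG15628*, a gene of a list of widely cycling genes that the study chose on these data, differed by -1.23 (SE 0.14).

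The lists are read beside the 3.90% called over all genes tested. A member could pass the filter through Trissin cells alone, so medians and splits describe the tested members only. Of the 13 dpr genes tested (immunoglobulin surface proteins that bind those of the DIP family), 1 was higher (*dpr3*, 1.80) and 2 were lower (*dpr17* and *dpr13*), with a list median of -0.52 against -0.02 over all genes tested. Of 20 transmitter receptors, 2 were higher (*Oamb* and *5-HT1A*) and 2 lower (*mGluR* and the dopamine and ecdysteroid receptor gene *DopEcR*), with a median of -0.02. Of 4 peptide receptors only the allatostatin A receptor gene *AstA-R1* was called, at -2.13 (SE 0.29). Of 7 neuropeptide genes *NPF* was higher and *sNPF* lower, and of 5 beat genes *beat-VII* and *beat-Ia* (-1.15, SE 0.27) were lower. The calls of *beat-Ia*, *dpr13* and *DopEcR* were lost with at least 5 cells per batch and in libraries without a well rich in *NPF* or *Dsk*. That of *dpr3* was lost in such libraries too, and that of *5-HT1A* with at least 5 cells or without the batch term. *DopEcR* was also lost in 2 of 19 fits that left out a batch. *pdm3*, a POU domain gene of the dorsal neuron list, was lower (-1.97, SE 0.30), as was *Dyrk2*, a kinase gene (-1.49, SE 0.19), 1 of 9 genes of the clock kinase list. The 0 calls among 16 ion channels, 10 genes of cyclic nucleotide signalling and 10 of peptide processing are near the background share. The core clock gave 0 of 7. *tim* differed by 0.08 (SE 0.19), *vri* by -0.07 (SE 0.23) and *Clk* by 0.12 (SE 0.24), and *cry*, the blue-light receptor gene, by 0.60 (SE 0.18, adjusted p = 0.0209), under the 2-fold limit.

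**Figure D2:**
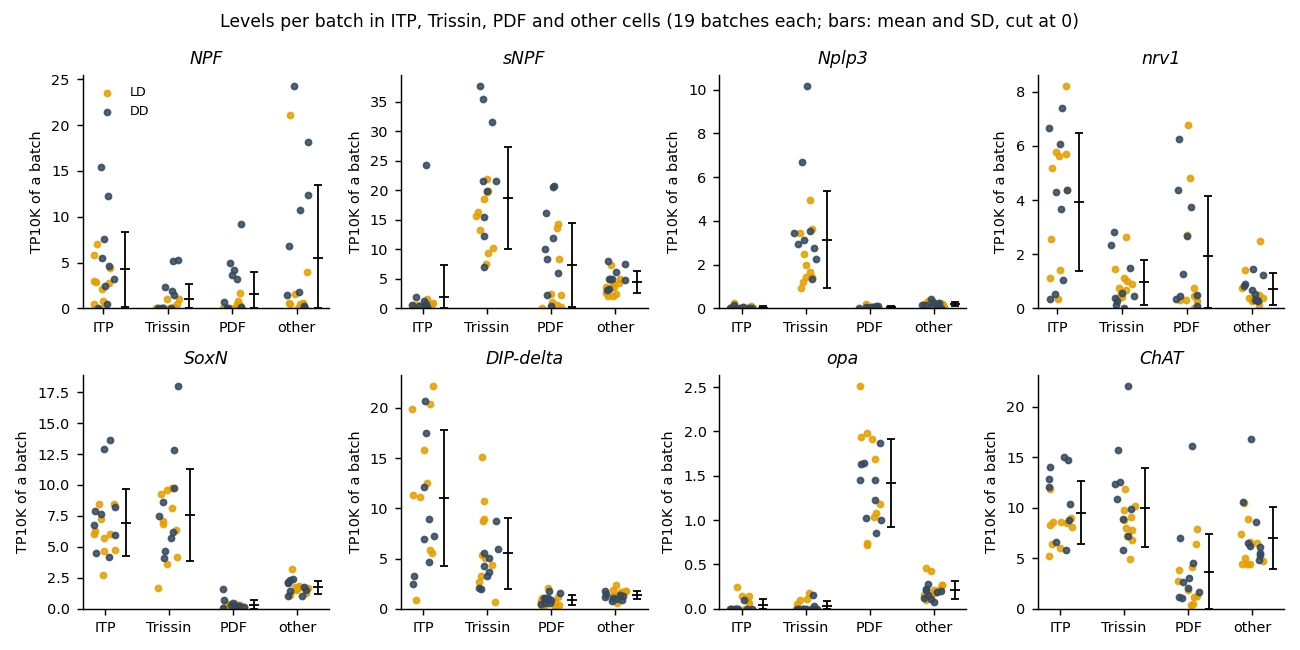
Level per batch (TP10K) of 8 genes in ITP, Trissin, PDF and other cells, with 1 point for each of the 19 batches, LD in orange and DD in dark blue, and the mean and SD as bars. *sNPF* and *Nplp3* are low in ITP cells but for 1 *sNPF* batch at 24.3 TP10K, *SoxN* and *DIP-delta* are shared with Trissin cells, and *opa* is near 0 in both but up to 2.51 TP10K in PDF cells.

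Against PDF cells, 187 of 2242 genes were called (8.34%), 81 higher (3.61%) and 106 lower (4.73%). The smallest adjusted p among higher genes was that of *SoxN*, for a transcription factor of the Sox family. *SoxN* (FBgn0029123, chromosome 2L, 8825645 to 8829670, plus strand) ran from 2.70 to 13.6 TP10K in ITP cells (median 6.26) and from 0.0819 to 1.62 in PDF cells (median 0.246), with no overlap. Its log2 difference was 4.56 (SE 0.25, adjusted p = 8.23e-14 by the quasi-likelihood test). *Sox21b* ran from 1.44 to 5.74 TP10K against 0 to 0.585, a log2 difference of 3.82 (SE 0.30), and *D* (Dichaete) differed by 3.38 (SE 0.30). Both were higher in 19 of 19 batches. *opa*, a zinc finger gene, went the other way, with 0.719 to 2.51 TP10K in PDF cells and at most 0.241 in ITP cells, a log2 difference of -4.73 (SE 0.35).

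*heph*, for a polypyrimidine tract-binding protein, stood at 20.8 ± 8.57 TP10K against 4.85 ± 1.92 (SD, n = 19), and *Pdi*, for a protein disulfide isomerase, at 11.4 ± 5.18 against 3.91 ± 1.61. *DIP-delta*, of the family that binds dpr proteins, ran from 0.841 to 22.2 TP10K against 0.243 to 2.09, a log2 difference of 3.48 (SE 0.26). The transporter gene *blot* (1.10) and the ribosomal protein gene *RpL22* (1.07) lay close to the 2-fold limit, and *CG13408* (3.78) and *CG4829* (4.41) completed the 10 with the smallest adjusted p. Each of these was higher in 19 of 19 batches.

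*beat-Ic* ran from 0 to 0.463 TP10K in ITP cells and from 0.552 to 8.01 in PDF cells, and the matrix metalloproteinase gene *Mmp2* from 0.487 to 3.16 against 4.36 to 23.4. Neither pair of ranges overlaps. *dpr9* differed by -2.39 (SE 0.21), *scyl*, an inhibitor of TOR signalling, by -1.65 (SE 0.16), and *CG2269*, *CG43902*, *CG1504*, *CG12594* and *CG43373* by -2.16 to -3.95.

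Peptide signalling differed in both directions between ITP and PDF cells. Of 9 neuropeptide genes tested, *NPF* was higher by 2.22 (SE 0.35, adjusted p = 1.65e-05), a call lost when batch was left out of the model. *sNPF* differed by -2.65 (SE 0.35), *Dh31*, for diuretic hormone 31, by -1.67 (SE 0.30) and *Mip*, for myoinhibiting peptide, by -1.39 (SE 0.33). The receptor gene *SIFaR* was higher by 1.95 (SE 0.38), and the receptor genes *Dh31-R* and *AstC-R2* were lower by -3.38 (SE 0.35) and -1.67 (SE 0.28). *ChAT*, which makes acetylcholine, stood at 9.52 ± 3.10 TP10K in ITP cells and 3.66 ± 3.74 in PDF cells (SD, n = 19), higher in 18 of 19 batches by 1.84 (SE 0.27). It was the only one of 8 genes of transmitter synthesis and transport to be called.

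Among receptors, channels and enzymes, *Oamb* (1.99) and the octopamine receptor gene *Octbeta3R* (1.11) were higher and *mGluR* lower (-2.34) than in PDF cells, 3 of 25 transmitter receptors beside 8.34% of all genes. The *Octbeta3R* call was lost in 2 of 18 fits that left out a batch and in 3 alternatives. Of 18 ion channels, the calcium channel gene *Ca-alpha1T* (1.47, SE 0.19) and the potassium channel gene *eag* (1.48, SE 0.21) were higher in 19 of 19 batches, and the potassium channel gene *Shab* was lower (-1.18, SE 0.29). The adenylyl cyclase genes *Ac78C* (-1.96) and *Ac13E* (-1.70) were lower, *amon*, for a prohormone convertase, and *Sytalpha*, for a synaptotagmin, were higher (1.40 and 1.48), and *nrv1* was higher by 1.55 (SE 0.39), a call lost without the batch term. Of 15 dpr genes, *dpr2*, *dpr3* and *dpr10* were higher (1.85 to 2.92) and *dpr1* and *dpr9* lower. Of 7 beat genes 4 were lower and 0 higher, with a list median of -1.32 against -0.06 over all genes tested. A beat gene near 0 in ITP cells could pass the filter through PDF cells alone and is then bound to be lower. The split and the median are therefore not read as a result about the family. The heat shock genes *Hsp68* (-1.55) and *Hsp70Aa* (-1.0), the latter one of near-identical copies and thus uncertain, were the 2 of 8 stress genes called. The *Hsp70Aa* call was lost in 10 of 19 fits that left out a batch and in 4 alternatives, with sizes down to -0.72.

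None of the 7 core clock genes tested reached a 2-fold difference from PDF cells. *tim* differed by -0.65 (SE 0.12, adjusted p = 9.07e-05), in 18 of 19 batches, and *cwo*, a repressor gene of the loop, by -0.79 (SE 0.17, adjusted p = 0.000632). The adjusted p of both passed, and the fold of neither did. The homeobox gene *toy* differed by -0.85 (SE 0.14), and *Hr51* higher by 0.87 (SE 0.23), under 2-fold too.

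Against other cells, 377 of 4753 genes were called (7.93%), 72 higher (1.51%) and 305 lower (6.42%). These counts rest on sums over far more cells on 1 side, and the other cells include classes rich in peptides and in other transmitters. *Pdi* had the smallest adjusted p, at 11.4 ± 5.18 TP10K against 2.18 ± 0.808 (SD, n = 19), a log2 difference of 2.38 (SE 0.10, adjusted p = 4.56e-21). Also higher in 19 of 19 batches were *DIP-delta* (2.81), *SoxN* (1.99), *Bx*, for a LIM-only protein (1.60), *RpL22* (1.11), *CG17777* (2.17), *CG13950* (3.94), *CG4829* (3.28), *CG13408* (2.19) and *CG8405* (1.82). Of the core clock, *cry* alone was called, at 4.05 ± 2.77 TP10K against 1.37 ± 0.574 and 1.43 log2 units (SE 0.14). All 8 core clock genes had an estimate above 0, with a median of 0.29 against -0.16 over all genes tested. The shared sign is not read as a result. Under some alternatives *tim*, *Clk*, *cyc*, *vri* and *Pdp1* fell below 0, down to -0.26 for *cyc*. The receptor gene of PDF, *Pdfr*, was higher by 1.02 (SE 0.14), so close to 2-fold that the call was lost without any 1 of 7 batches.

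Several peptide and transmitter genes were lower in ITP cells than in the mixture. Of 28 neuropeptide genes listed, 16 passed the filter on low counts here, against 7 and 9 in the comparisons with Trissin and PDF cells. A gene near 0 in ITP cells can pass it through the sums of other cells alone and is then bound to be lower, so the number of lower genes in a list is not read as a result. Called genes include *Dh31* (-2.84, SE 0.18), *AstC*, for allatostatin C (-2.65, SE 0.17), *CCHa1* (-3.0, SE 0.26), *Mip* (-3.08, SE 0.22) and *Crz*, for corazonin (-3.50, SE 0.32), whose call was lost with DESeq2 (-1.88, adjusted p = 0.124). *VGlut*, the vesicular glutamate transporter, stood at 1.99 ± 1.19 TP10K against 12.2 ± 3.18, *Gad1*, which makes GABA, at 0.669 ± 0.593 against 4.40 ± 2.50, and *Vmat*, the monoamine transporter, at 5.10 ± 3.24 against 38.8 ± 22.2 (SD, n = 19). The dorsal neuron genes *gl* (-2.81), *ham* (-2.41) and *pdm3* (-2.16) were lower, and *D* was higher (1.12).

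*NPF* gave no call against other cells, at 4.30 ± 4.09 TP10K against 5.55 ± 7.89 (log2 difference 0.74, SE 0.38, adjusted p = 0.186), and its level in the mixture rests on single wells. In 31 libraries at least 1 well held 100 TP10K of *NPF* or more, 41 such wells in all, and in those libraries most cells of every class had an *NPF* UMI: 86.1% of ITP cells, 66.7% of Trissin cells and 67.4% of PDF cells. In the 53 libraries without such a well, 53 of 85 ITP cells had one (62.4%, mean 4.16 TP10K), against 15 of 102 Trissin cells (14.7%, mean 0.0624) and 47 of 254 PDF cells (18.5%, mean 0.111). There, 22 ITP cells but 0 Trissin and 0 PDF cells held 5 TP10K or more. Of 2825 other cells in these libraries, 37 did too, with up to 57.7 TP10K against 42.1 in ITP cells, and 18.1% had an *NPF* UMI. A high *NPF* level was thus not confined to ITP cells. Median depths of the classes are given above. When, after seeing the data, libraries with a well rich in *NPF* or *Dsk* were left out, the log2 difference from other cells became 3.34 and passed the test. That choice takes the wells highest in *NPF*, none of them ITP cells, out of the comparison, which by itself raises the difference. The outcome is therefore given as a description and is no independent support.

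Within the class, *NPF* was uneven. Of the 121 ITP cells, 37 had no *NPF* UMI, 36 held at least 5 TP10K and 21 at least 10, up to 42.1. Both kinds occurred together in 9 of 26 batches. The cells with at least 5 TP10K had a median of 20019 UMIs and 588 TP10K of *ITP*, and those without an *NPF* UMI 24039 and 470. These medians pool cells of different batches and light conditions, and the part of depth or batch in the unevenness was not tested. After thinning each well to 6000 UMIs, 57.0% of ITP cells kept an *NPF* UMI (Wilson interval 48.1% to 65.5%), against 24.2% of other cells, 20.3% of PDF cells and 18.3% of Trissin cells. These values pool libraries with and without a well rich in *NPF*. Of the ITP cells with at least 5 TP10K, 14 lay in libraries with such a well and 22 in the rest. In the former, 32 of 135 PDF cells and 8 of 51 Trissin cells reached 5 TP10K too.

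Of 7 DIP genes tested against other cells, *DIP-delta* was the only one called higher, and 5 were called lower, among them *DIP-theta* at -2.90 (SE 0.33). Over all genes tested, 1.51% were called higher and 6.42% lower. Genes near 0 in ITP cells could pass the filter through other cells alone, so the numbers of lower genes here are not read as a result. Of 21 dpr genes, *dpr2* (1.22), *dpr3* (1.51) and *dpr10* (1.01) were higher, the last a call lost in 9 of 19 fits that left out a batch and in 6 alternatives. Another 8 dpr genes were called lower, among them *dpr13* at -2.26 (SE 0.20). Of 13 beat genes 10 were called lower and 0 higher. *beat-IIb* stood at 0.0171 ± 0.0473 TP10K against 0.378 ± 0.117 (SD, n = 19), a level so close to 0 that its fold of -4.55 is a fitted value and no bound.

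**Figure D3:**
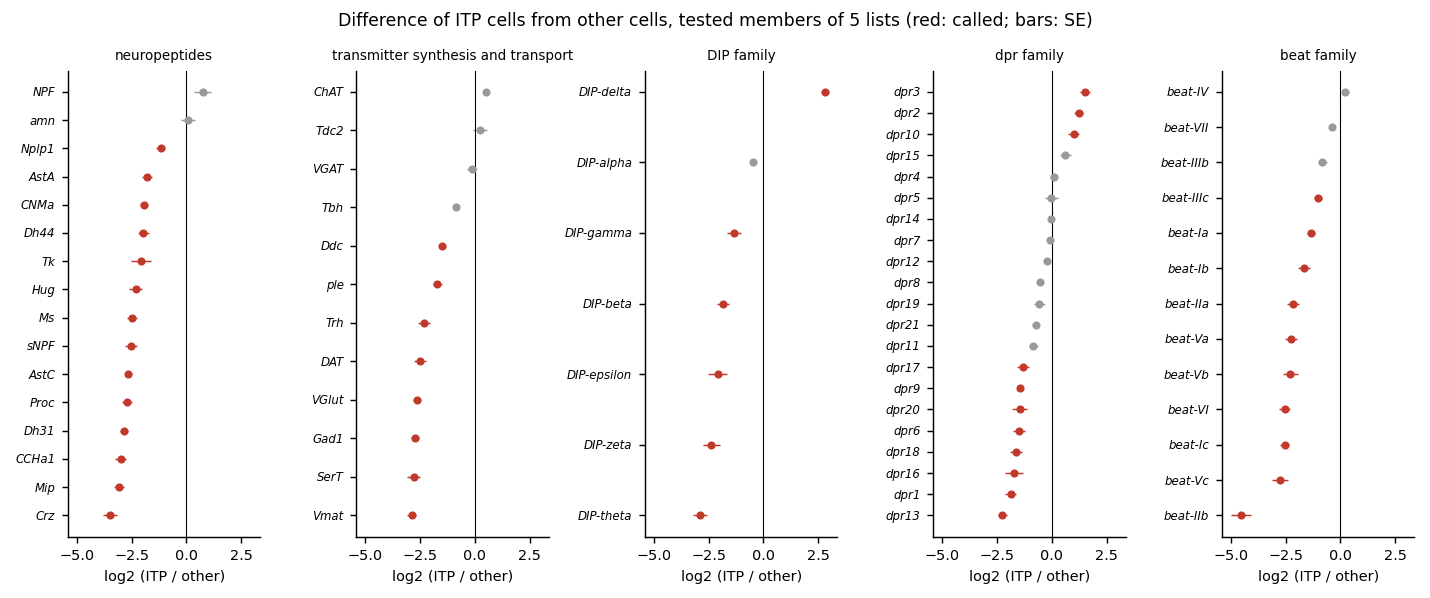
Log2 difference between ITP cells and other cells (horizontal axes, 0 means no difference) for the tested members of 5 gene lists, with the SE as bars and called genes in red. *DIP-delta* at 2.81 and *dpr3* at 1.51 stand to the right, and *Dh31* at -2.84 and *DIP-theta* at -2.90 to the left. Genes near 0 in ITP cells could pass the filter only where other cells are high.

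Of the genes that passed the test against other cells, *CG13950* (FBgn0031289, chromosome 2L, 860197 to 861806, plus strand) kept most closely to the ITP cells. It had UMIs in 91 of 121 ITP cells, 11 of 153 Trissin cells, 65 of 389 PDF cells and 438 of 4473 other cells. After thinning, the shares were 44.6%, 0%, 9.25% and 4.63%, of ITP, Trissin, PDF and other cells. The 0% holds at the thinned depth only, as 11 Trissin cells had a UMI before thinning. Its level per batch ran from 0.397 to 4.94 TP10K in ITP cells and from 0 to 0.156 in Trissin cells, with no overlap, but it did not pass the filter on low counts in that comparison and was not tested there.

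Rhythms were tested on sums over the ITP cells of a batch, with a cosine and a sine of 24 h. Genes were called cyclers at an adjusted p below 0.05 with a fitted peak of at least 1.5 times the trough and a mean of at least 0.8 TP10K at its highest time point. The amplitude is given as the fitted peak minus the fitted trough in log2 units. With LD and DD together and a common rhythm, 53 of 2766 genes were cyclers (1.92%), 25 with a peak before 12 h and 28 later. In LD alone 1 of 2378 was found (0.0421%) and in DD alone 4 of 1958 (0.204%). Data simulated from these batches, drawn as independent, were tested with the adjusted p as the only limit. There the common test found 41.3% of rhythms with an amplitude of 2 and 96.9% of those with 4, and the LD test 14% and 83.3%. The limits on amplitude and level were not applied to these data.

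*tim* was the clearest cycler and the only one found in LD, in DD and in common. In LD (*tim*: FBgn0014396, chromosome 2L, 3493986 to 3508119, minus strand) it read 0.687 TP10K at ZT02, 2.70 at ZT06, 9.51, 10.3 and 9.33 at ZT10, 32.1 and 23.2 at ZT14, 24.5 at ZT18, and 5.44 and 7.03 at ZT22. In DD it read 3.21 and 1.84 at CT02, 4.49 at CT06, 41.7 and 26.2 at CT14, 11 and 16.5 at CT18, and 6.39 and 2.99 at CT22. Both sets are high at 14 h and low around 2 h, and the batches at 14 h do not overlap with those at 2 and 6 h. The common fit peaked at 14.9 h with an amplitude of 3.84 (adjusted p = 1.92e-05 by the quasi-likelihood test). The LD call (adjusted p = 0.0272) held in only 2 of the 10 fits that each left out a batch, and with at least 5 cells per batch or an *ITP* threshold of 300 TP10K it was lost.

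Genes of the other loop of the clock also cycled. *vri*, for a repressor of *Clk*, peaked at 13.4 h with an amplitude of 3.70 (adjusted p = 0.00599). It read 0.115 TP10K at ZT02 and 4.05 to 11 at ZT10, and in DD 0.706 and 1.02 at CT02 and 8.19 and 9.36 at CT14. *Clk* peaked at 2.31 h with an amplitude of 2.94 (adjusted p = 0.0192), opposite to *vri*. It was high at ZT02 (3.95 TP10K), ZT06 (3.13) and ZT22 (2.47 and 4.89) and low at ZT14 (0.408 and 0.480), while in DD no batch passed 1.97. The *Clk* call was lost in 4 alternatives and the *vri* call in 2, with adjusted p up to 0.225 and 0.117.

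*Pdp1*, for an activator of *Clk*, peaked at 17.5 h with an amplitude of 2.05 (adjusted p = 0.0212), a call lost without the CT02 batch of 5 cells (amplitude 2.04, adjusted p = 0.0585) or the ZT06 batch (1.86). Of the 7 core clock genes tested 4 thus cycled, and *per*, *cwo* and *cry* were not called, with amplitudes of 2.14, 1.36 and 1.25 and adjusted p of 0.196, 0.205 and 0.595. *per* is read from low counts, 0.166 to 2.62 TP10K in 18 batches and 13.4 in the ZT14 batch of 6 cells. *cyc* was under the filter. Simulated rhythms with an amplitude of 2 were found in 41.3% of cases, over genes of all levels and with the adjusted p as the only limit.

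*Argk*, for the arginine kinase that buffers ATP, peaked at 4.87 h with an amplitude of 3.72 (adjusted p = 0.000376). It read 12.3 to 26.1 TP10K from ZT02 to ZT10 and 2.16 to 3.04 at ZT14 and ZT18, and 14.9 to 25.7 at CT02 and CT06 against 1.96 to 4.01 at CT14 and CT18, with no overlap between these day and night batches in either light condition. *Nep2*, for a neprilysin that cleaves peptides, peaked at 6.5 h (amplitude 3.96), with 2.40 to 2.87 TP10K at CT02 and CT06 and 0 to 0.567 at CT14 and CT18. *nmo*, for a kinase that acts on PER, peaked at 3.78 h (amplitude 2.49, adjusted p = 0.00871), with 19.1 to 29.6 TP10K in the batches at 2 h and at ZT10 and 2.95 to 6.12 at 14 h. *alphaTub84B*, for an alpha-tubulin, peaked at 7.82 h and the genes *CG32369* and *CG17777* at 0.585 and 1.03 h.

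*Fkbp14*, for a prolyl isomerase of the endoplasmic reticulum, peaked at 14.5 h (amplitude 3.80, adjusted p = 0.000376). It read 2.70 and 3.99 TP10K at ZT14 against 0.578 at ZT06, and 4.77 and 16.4 at CT14 against 0.141 and 0.341 at CT02. *Pka-R2*, for a regulatory subunit of protein kinase A, peaked at 15.9 h (amplitude 2.81), with 8.47 and 10.8 TP10K at ZT14, 19.2 and 26.2 at CT14 and 2.12 to 2.58 in the batches at 2 h. *CG15628* peaked at 14.7 h (amplitude 3.0), with 17.4 and 30.8 TP10K at ZT14 against 3.32 at ZT02. *Argk* and *CG15628* are 2 of the 3 genes of the list of widely cycling genes, which the study chose on these samples, so their calls are not independent evidence.

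*Tdc2*, for the neuronal enzyme that makes tyramine, peaked at 16.3 h with an amplitude of 4.18 (adjusted p = 0.00987). It read 0.139 to 0.241 TP10K in the 5 LD batches from ZT02 to ZT10 and 3.24 and 3.56 at ZT14, and in DD 0.243 and 0.847 at CT02 and 7.26 and 9.83 at CT14, so the batches at 14 h lie above all those at 2, 6 and 10 h. It was the only one of 9 genes of transmitter synthesis and transport to cycle. *Irk1*, for an inwardly rectifying potassium channel and the only one of 20 ion channels, peaked at 13.3 h with an amplitude of 5.18 (adjusted p = 0.0106), from 2.04 to 3.61 TP10K at 14 h down to 0 to 0.115 at 2 h. At ZT10 its 3 batches differed widely, with 0.0579, 0.432 and 4.32.

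Of 15 dpr genes 3 cycled. *dpr3* peaked at 16.3 h (amplitude 2.96, adjusted p = 0.00284), with 2.82 to 5.56 TP10K at 14 and 18 h and 0.630 to 0.847 at 2 and 6 h, which do not overlap. *dpr10* peaked at 17.3 h and *dpr15* at 21.5 h, and these calls were lost in 4 and 7 of the 19 fits that left out a batch. *amon* peaked at 19.3 h (amplitude 1.66, adjusted p = 0.0494), a call lost in 14 of the 19. Of 13 neuropeptide genes, 7 peptide receptors, 30 transmitter receptors and 5 beat genes 0 cycled, and *NPF* was not called (amplitude 2.05, adjusted p = 0.509). The background beside these counts is the 1.92% of all genes tested. Of the cyclers named, *amon*, *dpr10* and *dpr15* were lost in 5 of 12 alternatives and *Clk*, *alphaTub84B* and *CG32369* in 4. *Nep2* and *Pdp1* were lost in 3, *vri*, *nmo*, *Irk1* and *CG17777* in 2, and *Tdc2*, *Fkbp14* and *Pka-R2* in 1. *tim*, *Argk*, *CG15628* and *dpr3* were called in all 12.

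**Figure D4:**
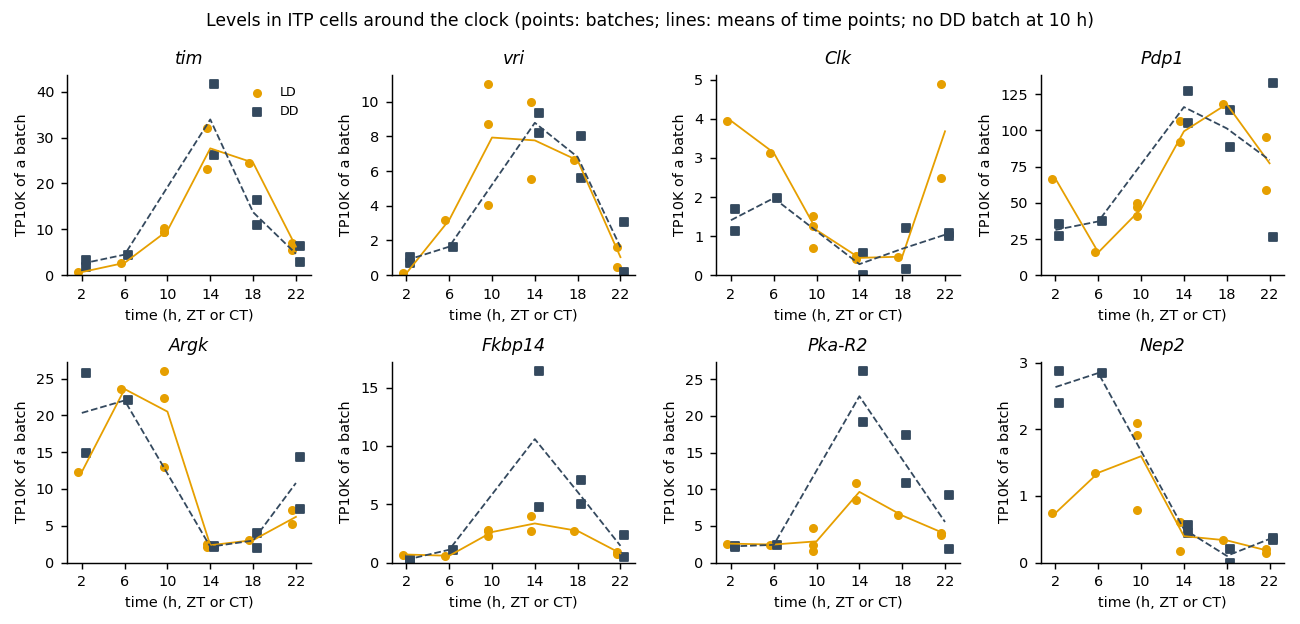
Level per batch (TP10K) of 8 cyclers in ITP cells by time of day (h, ZT or CT), with LD as orange circles and solid lines and DD as dark squares and dashed lines through the means of time points, and with 0 DD batches at 10 h. *tim* is highest at 14 h in both, at 23.2 and 32.1 TP10K in LD and at 26.2 and 41.7 in DD, and *Argk* and *Nep2* are low at 14 and 18 h.

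The cyclers found in DD alone were *tim*, *Argk*, *Irk1* and *Fkbp14*. Their number was 0 without the CT02 batch of 5 cells, 8 without the CT18 batch of 3 cells or the CT22 batch of 3 cells, and 21 without the CT14 batch of 6 cells. The common count fell to 33 without the ZT14 batch of 10 cells. Of the 53 common cyclers 1 was also an LD cycler and 4 were also DD cyclers. A difference of rhythm between LD and DD was called for 0 of 3649 genes (0%) by the quasi-likelihood test, with 174 at an unadjusted p under 0.05, and for 1 by DESeq2. The test found 0% of simulated differences with a log2 size of 2 and 21.1% of those with 4.

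Between DD and LD, 23 of 2766 genes were called (0.832%), 4 higher (0.145%) and 19 lower (0.687%) in DD. Of the 10 genes lower in DD with the smallest adjusted p, most were entries of ribosomal RNA. *mt:srRNA*, the small ribosomal RNA of mitochondria, ran from 10 to 55.1 TP10K in LD with a median of 31.5, against 3.83 to 10.1 in DD (median 5.81). The lowest LD batch lies just under the highest DD batch, and the other batches do not overlap. The log2 difference was -2.40 (SE 0.29, adjusted p = 0.000155 by the quasi-likelihood test). *18SrRNA-Psi:CR41602* (-1.65) and 5 other pseudogene entries of nuclear ribosomal RNA were among the 10 lower genes with the smallest adjusted p, but these are near-identical copies, so that reads cannot be told apart between them.

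The share of UMIs on the 53 ribosomal RNA entries differed between LD and DD in every class alike. In ITP cells it was 16.8% ± 4.81 in LD (SD, n = 10) and 6.97% ± 1.80 in DD (SD, n = 9). In Trissin cells it was 16.6% and 7.62%, in PDF cells 16.8% and 8.26% and in other cells 15.9% and 6.46%. The ITP batches overlap only through the ZT14 batch of 6 cells, at 5.62%. The other LD batches held at least 14.6% and the DD batches at most 9.50%. Light and batch number cannot be told apart in this difference either.

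Of genes that make proteins, *Dop2R*, for a dopamine receptor, stood at 4.54 ± 1.48 TP10K in LD and 1.63 ± 0.871 in DD (SD, n = 10 and 9), a log2 difference of -1.62 (SE 0.29, adjusted p = 0.00573). It ran from 2.17 to 7.24 in LD and from 0.755 to 3.40 in DD, which overlap. *shakB*, for a gap junction innexin, ran from 1.80 to 5.95 in LD and from 0.989 to 2.52 in DD, a difference of -1.46 (SE 0.28, adjusted p = 0.00792). *CG32369* differed by -2.04 (SE 0.36) and *Nplp1*, for a neuropeptide precursor, by -1.45 (SE 0.35), a call lost in 13 of the 19 fits that left out a batch. Over 11 alternatives the calls of *shakB* and *Nplp1* were lost in 5 and those of *Dop2R* and *CG32369* in 3. In Trissin, PDF and other cells *Dop2R* was lower in DD too, with means of 4.68 and 2.06, 2.77 and 1.14, and 6.60 and 2.81 TP10K.

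The 4 genes higher in DD were *Dsk*, *RpS14b*, *Pal2* and *CG32549*. With a batch left out the *CG32549* call was lost in 17 of 19 fits and the *RpS14b* call in 4, and over 11 alternatives these were lost in 6 and 7, and that of *Pal2* in 7. The *Dsk* call was lost in 3 of 9 alternatives, DESeq2 among them. *Pal2*, for an enzyme that amidates peptides, ran from 2.40 to 5.44 TP10K in LD and from 2.68 to 14.8 in DD, a log2 difference of 1.18 (SE 0.26, adjusted p = 0.0271), a call lost in 6 of 19 fits that left out a batch. *RpS14b*, 1.10 higher (SE 0.24), has a near-identical copy, *RpS14a*, and the count between them is uncertain. *Dsk*, the gene of drosulfakinin, reached 0.288 TP10K in 1 LD batch with 0.0482 in the next, and 5.33 in the highest DD batch, while the median of both was 0. In the 13 libraries with a well of at least 100 TP10K of *Dsk*, 9 of 12 ITP cells and 71.3% of other cells had a *Dsk* UMI, and elsewhere 1 of 109 ITP cells and 1.79% of other cells.

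With the library size alone in place of TMM normalization, the median log2 difference of all genes between DD and LD moved from -0.02 to 0.15 and the calls became 16 higher and 15 lower. The share of calls that are higher thus rose from 17.4% to 51.6%. Without the CT02 batch of 9 cells the count was 38, and without the CT06 batch it was 15. The core clock gave 0 of 7 between DD and LD, with *tim* at -0.01 (SE 0.26) and *Clk* at -1.23 (SE 0.40, adjusted p = 0.135).

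**Figure D5:**
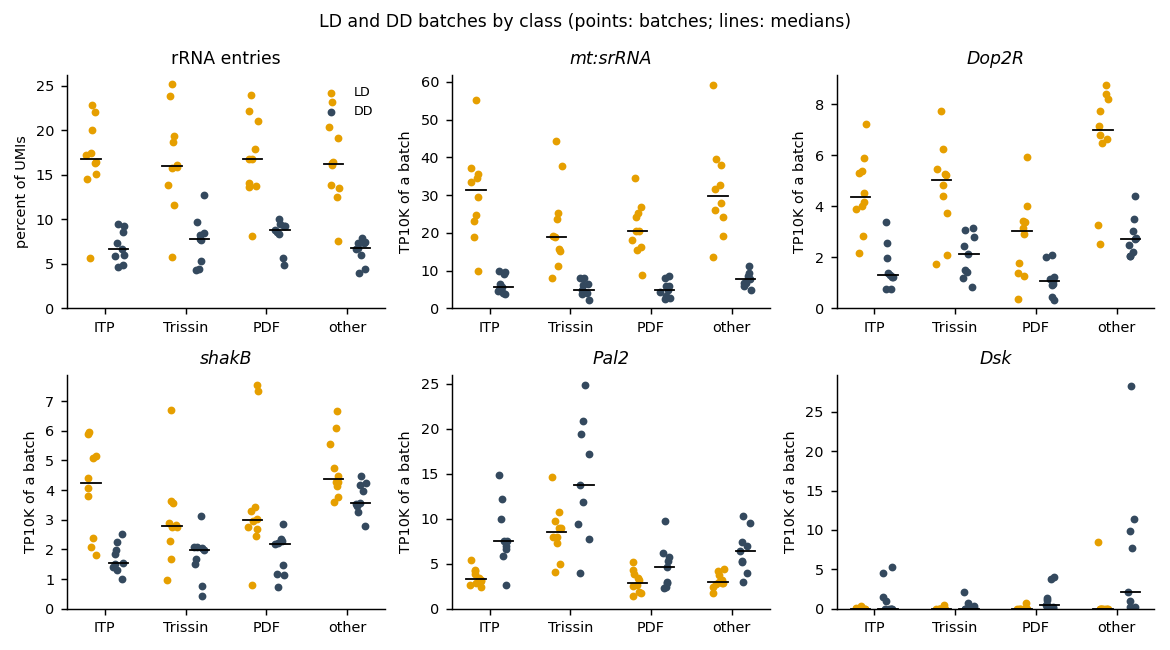
Ribosomal RNA entries (percent of UMIs) and 5 genes (TP10K) per batch in ITP, Trissin, PDF and other cells, LD in orange and DD in dark blue, with lines at the medians. The ribosomal share is lower in DD in all 4 classes, from 16.8% to 6.97% on average in ITP cells, and *Dsk* is read mainly in some DD batches.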

How the data were processed

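CEL-Seq2 libraries of single sorted neurons were analysed. The authors demultiplexed reads with bcl2fastq 2.20, aligned them to dm6 with zUMIs and STAR and counted UMIs on annotated exons, and the deposited counts carry no normalization and no filter on wells. Whether strand was used is not given in the sources used here. Spike-in and EGFP entries were left out, and no doublet caller was run. Counts were summed per class and batch (at least 3 cells) and tested with edgeR 4.0.16 in R 4.3.3 (quasi-likelihood test, TMM, filterByExpr, Benjamini-Hochberg over all genes tested), with batch as a term between classes. Levels are TP10K of the summed counts, and differences and rhythms come from the model. Thinning and intervals used Python 3.11.15 with numpy 2.4.6 and scipy 1.17.1. Coordinates come from an Ensembl annotation of BDGP6. The tests were checked on simulated data with known changes.

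The cells, markers and gene lists were chosen with earlier results of these data known. Named genes are the core clock, lateral transcription factor and widely cycling lists with *NPF*, *hth* and *Hr51*. They also include the 10 genes with the smallest adjusted p per comparison and direction, and called members of the other lists. Not every gene that meets this rule is named, above all in the comparison with other cells. *nSyb*, *elav*, the other cell type markers and *RpS14a* were named outside this rule. Alternatives were no filter, library size, DESeq2 1.42.0, other cell minimums and *ITP* thresholds, 1000 genes as the only limit, time points in place of a cosine, a block for the batch number, no fold limit and leaving out each batch. Libraries without a well rich in *NPF* or *Dsk* were an alternative chosen after seeing the data.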

Additional observations from a re-analysis of the deposited data

Results flagged for a closer look

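In 40 sets of 9 or 10 batch values of the ITP cells, 6 had a highest batch far from the rest by Dixon's criterion. Chance meets it in about 1 in 20 sets of normally distributed values. Levels at or near 0 in most batches are not of that kind, so 6 of 40 is not read as an excess. *Hr51* reached 2.88 TP10K in 1 LD batch, at ZT10, with 1.25 in the next. *sNPF* reached 24.3 in 1 DD batch, with 2.00 in the next. *Dsk* reached 0.288 in LD, with 0.0482 in the next. *Nplp3* reached 0.240 in LD and 0.146 in DD, with 0.0951 and 0.0567 in the next. *opa* reached 0.0974 in DD, with 0 in the next. The last 4 are levels of few UMIs.

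Among 2298 wells outside the limits that held at least 1000 UMIs, 63 had 150 TP10K of *ITP* or more, wells that no comparison used. Of these, 34 held under 6000 UMIs, 44 had an entropy under 5.5, 26 had under 1000 genes and 4 had over 75000 UMIs. Their median *ITP* level was 474 TP10K, against a median of 3.95 over all 2298 wells.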

How the results depend on the processing

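The ITP cells are few, with a median of 6 per batch, no DD batch at 10 h and 1 batch at several time points, so rhythm calls depend on the setting. Without a filter on low counts the calls were 173 in LD, 84 in DD, 132 in common, 147 for light, 145 for the interaction, and 155, 448 and 1258 against Trissin, PDF and other cells. DESeq2 called 73 in LD, 19 in DD, 108 in common, 57 for light and 1 for the interaction. With at least 1 cell per batch LD gave 7 and DD 9, and with at least 5 cells LD, DD and light gave 0 and the common test 5. An *ITP* threshold of 300 TP10K gave 0, 8, 25 and 4 (LD, DD, common and light), and one of 75 gave 9 in DD. With 1000 genes as the only limit LD gave 14, DD 7 and light 36. Time points in place of a cosine gave 9, 18, 32 and 35. Libraries without a well rich in *NPF* or *Dsk* gave 6 in common, 2 for light and 246 against other cells. Without a fold limit the classes gave 241, 516 and 992. The cause of these differences was not tested. A higher cell minimum also leaves fewer batches, and the part of this in the lost calls was not tested either. With each batch left out in turn, LD gave 0 to 1, DD 0 to 21, common 33 to 54, light 15 to 38, the interaction 0, Trissin 61 to 72, PDF 184 to 202 and other 360 to 400.

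The share of calls that are higher moved without the filter from 43.3% to 28.1% against PDF cells and from 19.1% to 7.55% against other cells, and for light from 17.4% to 8.16%. Batches with the same number deviated together beyond 0.1 in 3 of 7 pairs (median correlation 0.0499). Those with different numbers did so in 7 of 65 pairs (median -0.147). The main fits treat batches as independent, and how far those with the same number depend on each other was not tested. With the number as a replicate block the common test called 37, and without the batch block the classes gave 60, 180 and 330. There *Tk* against other cells turned to 0.17, and with time points *nmo* peaked at 10 h instead of 3.78 h, with an amplitude of 2.50. Of 3269 other values for single genes, 3040 kept their side of the threshold, and of 5432 with a batch left out, 5287 did. Genes called in the main fit also had to keep their direction to be counted here. Genes not called were counted whatever their sign or peak time, and some of them changed sign.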

Other observations

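The RNA of *ITP* itself was found in most wells. Of 4473 other cells, 76.7% held an *ITP* UMI, with a median of 2.92 TP10K. In libraries with an ITP cell the share was 91.8% (median 4.54 TP10K), and in libraries without one it was 36.9% (median 0). EGFP, the reporter, had a median of 32.3 UMIs per 10000 in ITP cells, 27.0 in Trissin cells, 28.1 in PDF cells and 11.9 in other cells.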
